A study of Homo sapiens with 33 samples.

Results

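Adhesion and homing receptors are the surface proteins by which lymphoid cells read chemical gradients, roll, arrest and hold on to other cells or to matrix. The list examined here has 44 human gene symbols in 6 role groups and the unclassed molecule CD99, and 43 of them have a row among the 62446 gene rows of the deposited count files. PECAM1 has no row under its identifier and was not analysed here. The members were listed by symbol, with earlier results of these data known. The share of members called is therefore no unbiased comparison with the share of all genes. RNA sequencing covered 33 libraries in 11 groups of 3, all from human lines of acute lymphoblastic leukaemia. Nalm6 stands for the B-cell precursor type of this leukaemia and CEM for the T-cell type; the TLE1 knockout is an edited Nalm6 line labelled as lacking the co-repressor TLE1, and whether it is 1 clone is not given in the sources used here. Drugs were given for 24 h, and Nalm6 had an untreated group beside groups with 0.5 µM CHIR-99021 (CHIR, which blocks GSK3 and so acts as a Wnt agonist), 5 µM prednisolone and 100 nM dexamethasone, of which the last 2 are glucocorticoids. The dexamethasone libraries of Nalm6 have an untreated group of their own, called here the dexamethasone set. Knockout groups were untreated, on prednisolone at 5 µM and on dexamethasone at 100 nM, and CEM groups were untreated, on CHIR at 2 µM and on prednisolone at 10 µM. The labels put Nalm6 and the knockout in medium with charcoal-stripped serum. The treatment text of the labels swaps drugs between the lines, and the sample titles were followed.

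As background, chemokine receptors such as CXCR4 couple a gradient to movement, sphingosine-1-phosphate (S1P) receptors guide cells between tissue and blood, and P-selectin glycoprotein ligand (SELPLG) allows rolling on vessel walls. Integrins are pairs of an alpha and a beta chain; after activation from inside the cell they bind ligands of the immunoglobulin superfamily, such as the ICAM proteins, or matrix proteins such as fibronectin and laminin. In precursor B cells CXCR4 and the integrin of the ITGA4 and ITGB1 chains are known for retention in bone marrow, while CCR4, CCR7 and CCR9 are receptors of T-lineage cells that home to skin, lymph node, thymus and gut. Glucocorticoids act through a nuclear receptor, and CHIR acts by stabilising beta-catenin, a partner of TCF/LEF factors.

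Each library held between 25292579 and 61930057 gene-assigned counts, and levels are counts scaled to a total of 1000000 (CPM). In the shallowest library 3 counts equal 0.119 CPM, the upper limit that a count of 0 allows there, for counting error only. B-lineage markers fitted the labels: the summed level of 10 genes was 2647 to 3706 CPM in parental Nalm6 libraries and 171 to 245 CPM in CEM, and 10 T-lineage markers summed to 34.8 to 52.7 CPM and 1950 to 2125 CPM. CD3D, CD3E, CD5, CD7 and CD2 were at 0 in the first untreated Nalm6 set, while replicate 1 of the untreated dexamethasone set held 4 counts of CD3D and 8 of CD3E. TLE1 was at 25.4, 24.0 and 24.0 CPM in the 3 untreated knockout libraries and at 30.2, 34.0 and 31.8 CPM in untreated Nalm6, and under prednisolone at 54.5, 69.0 and 64.1 CPM and 110.0, 113 and 116 CPM. Its transcript was counted in all of them, and counts over the whole gene say nothing of the protein. Replicates of the first Nalm6 and knockout groups came from independent experiments per the series text; for the others nothing says so, and p-values measure the spread between these libraries.

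The untreated Nalm6 groups stood apart from each other, which bears on every comparison across them. Against the first set, the untreated dexamethasone set was higher for 16 and lower for 2 of 27 members tested (edgeR adjusted p under 0.05, the rule for every call here), where 50.2% (25.8% up and 24.4% down, 7.07% by at least 1 on the log2 scale) of all genes were called. S1PR1, the receptor for exit into blood, was at 4.45, 4.03 and 5.13 CPM in the dexamethasone set and 1.53, 1.51 and 1.13 CPM in the first set, a log2 difference of 1.77 ± 0.14 (estimate ± SE, 3 libraries against 3, as for each value with ± below). This SE is derived from the F test and does not bound a fold where 1 group is near 0. ICAM3, a ligand of the ITGAL and ITGB2 pair, was at 6.14, 5.32 and 5.91 CPM against 2.41, 3.35 and 2.75 CPM (1.11 ± 0.12). ITGAL was at 0.660, 0.523 and 0.403 CPM against 0.194, 0.122 and 0.104 CPM (1.96 ± 0.34). Libraries of the groups did not overlap for these 3 genes. ITGAL, with 12, 6 and 6 counts in the first set, passed the low-count filter through the dexamethasone set only, which fixed its direction. ITGA9, an alpha chain that binds tenascin and osteopontin, was lower, at 0.286, 0.185 and 0.403 CPM against 0.840, 0.592 and 0.627 CPM (-1.17 ± 0.29). ITGB7 was at 1.34, 1.23 and 0.749 CPM against 0.759, 0.428 and 0.279 CPM (1.23 ± 0.32), with overlapping libraries. The files also hold an unstranded column, which adds reads of the opposite strand and served as an alternative. The ITGB7 call was lost in the unstranded column, with log2 fold changes of 0.32 to 1.74 and adjusted p up to 0.132 over its alternatives. The remaining higher calls were MCAM (0.96), ITGA6 (0.87), CD44 (0.76), S1PR2 (0.74), CD48 (0.62), ICAM2 (0.52), S1PR4 (0.50), ITGB2 (0.40), CD164 (0.39), CD47 (0.17), CXCR4 (0.14) and ITGB1 (0.14), and CNTN2 was lower (-0.54). The CD44 call was lost without replicates 2 or 3 of untreated Nalm6 of the first set or replicate 2 of untreated Nalm6 of the dexamethasone set, with log2 fold changes of 0.60 to 1.01 and adjusted p up to 0.0746 over its alternatives. Dexamethasone was therefore set against the untreated group titled for it, and CHIR and prednisolone in Nalm6 against the first set. The sample titles do not name a control for prednisolone. The dexamethasone set was not run as an alternative control for it.

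In untreated cells, CXCR4 had the highest level per kilobase of exon among the members in each untreated group. It stood at 197 CPM per kilobase in Nalm6, 189.6 in the knockout and 155 in CEM. S1PR4 (51.4), ITGA4 (40.6), CD164 (35.8), CD47 (28.8) and CD58 (26.2) followed in the first Nalm6 set, and ITGA4 (142), CD47 (91.1) and CCR4 (45.0) in CEM. A group mean of at least 1 CPM was reached by 21 members in untreated Nalm6, 22 in the untreated dexamethasone set, 21 in the knockout and 31 in CEM. CCR6, ITGAX, CD99 and JAM2 had at most 8 counts in any library and entered no test. CD99 lies in the pseudoautosomal region, where 39 of 48 gene pairs had both rows at 0. Its own counts were at most 2, all in CEM, and are not read as absence. ITGAM (at most 29 counts) and L1CAM (at most 22 counts) were tested in the 5 comparisons that involve CEM alone or with Nalm6.

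**Figure D1:**
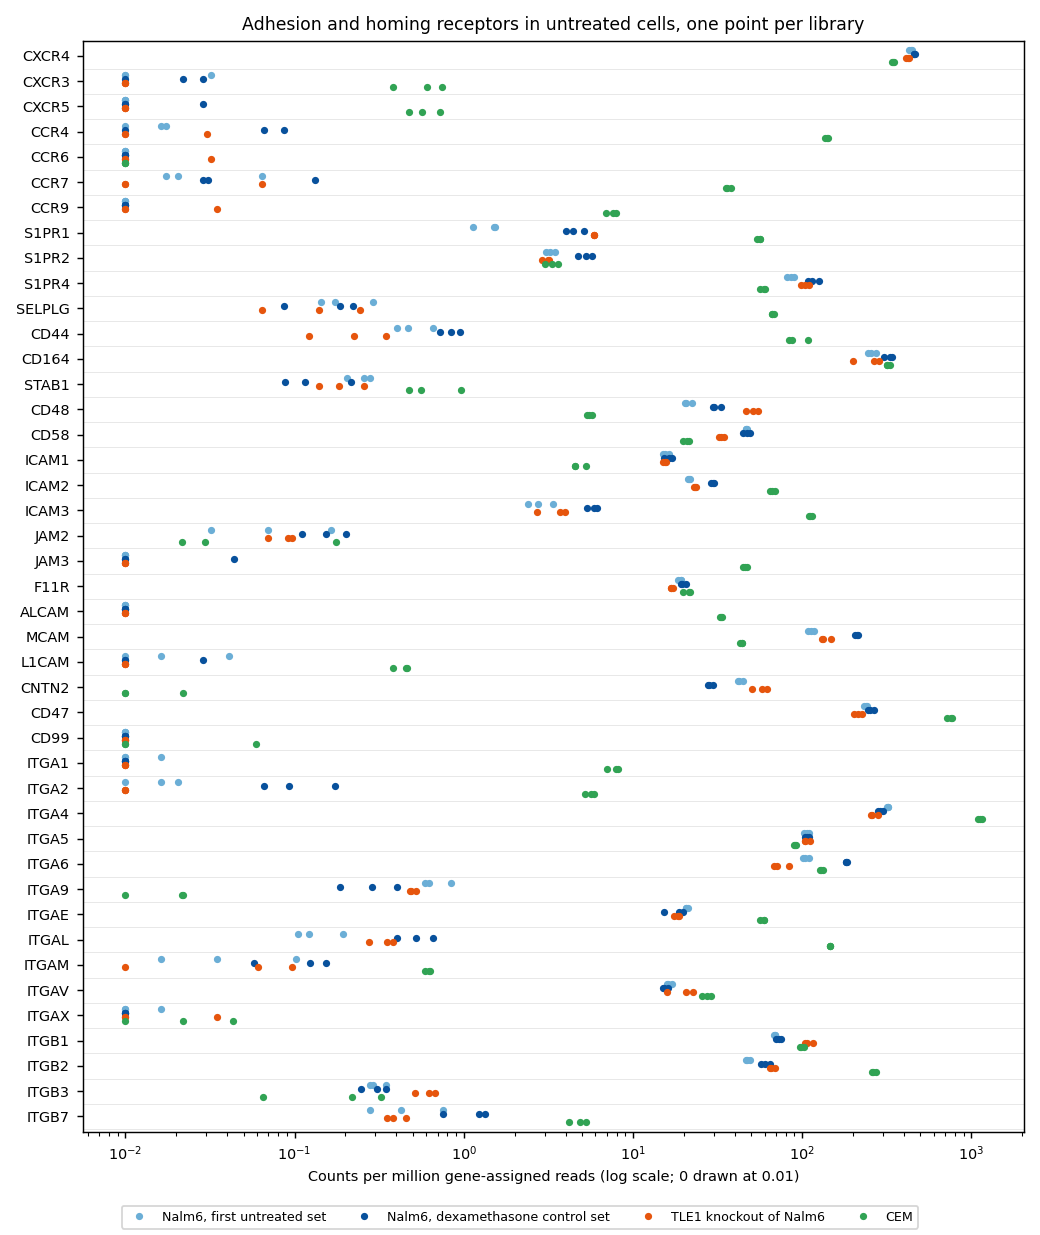
Level of each of the 43 members in untreated cells, in CPM on a log axis, with 1 point per library and 0 drawn at 0.01. CCR4, CCR7, CCR9, JAM3, ALCAM, ITGA1 and ITGAL lie far to the right in CEM, and CNTN2 in Nalm6 and its knockout.

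Between the lines, CEM was compared with the untreated Nalm6 group of the dexamethasone set. CEM was higher for 25 members and lower for 10 of 38 tested, and 29 of these differed by at least 1 on the log2 scale; 77.5% (40.2% up and 37.3% down, 35.9% by at least 1 on the log2 scale) of all genes were called. The median log2 difference was 1.97 over the members tested and 0.02 over all genes. Members near 0 in 1 line passed the low-count filter through the other line only, so their direction and lack of overlap were fixed by it. This bears on the counts and on the median. In bulk RNA, fewer cells with a transcript and less of it per cell cannot be told apart.

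Every chemokine receptor tested but CXCR4 was higher in CEM. These others were near 0 in Nalm6 and passed the low-count filter through CEM only, so their direction was fixed in advance. CCR4, the receptor for CCL17 and CCL22, was at 141, 135 and 141 CPM in CEM and at 0.0660, 0 and 0.0864 CPM in Nalm6 (11.23 ± 0.13, adjusted p = 5.59e-16). CCR7, which guides cells to lymph nodes, was at 35.9, 37.9 and 35.6 CPM against 0.132, 0.0308 and 0.0288 CPM (8.90 ± 0.16). With so few Nalm6 counts (3, 0 and 3 for CCR4) the SE does not bound these folds. Over the alternatives the log2 fold change ran from 10.74 to 13.28 for CCR4 and from 7.62 to 10.08 for CCR7. CCR9, the thymus and gut receptor, was at 7.61, 6.93 and 7.92 CPM in CEM and at 0 in each Nalm6 library, at least 279.6-fold higher when 3 counts over the group are allowed. All CEM libraries lay above all Nalm6 libraries for these receptors. CXCR3, a receptor for interferon-induced chemokines, was at 0.607, 0.746 and 0.384 CPM in CEM and held 2 counts in all in Nalm6, a ratio of 33.6 (95% exact counting interval 8.99 to 283). CXCR5, the follicle receptor, was at 0.563, 0.724 and 0.473 CPM against 1 count in all, a ratio of 67.3 (11.7 to 2692). The CXCR3 call was lost in the unstranded column, with log2 fold changes of 0.74 to 5.42 and adjusted p up to 0.0747 over its alternatives. CXCR4 was lower in CEM, at 349.8, 346 and 341 CPM against 466, 457 and 460.0 CPM (-0.45 ± 0.04, adjusted p = 9.43e-08), with no overlap.

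Among S1P receptors, S1PR1 was at 53.9, 56.0 and 56.2 CPM in CEM against 4.45, 4.03 and 5.13 CPM in Nalm6 (3.57 ± 0.07; 5.36 against the first untreated set). S1PR4, found mainly on lymphoid cells, was lower in CEM, at 56.6, 59.1 and 60.0 CPM against 108, 115 and 126 CPM (-1.03 ± 0.05). S1PR2 was lower by 0.69 on the log2 scale. The S1PR2 call was lost against the first untreated Nalm6 set and against both untreated Nalm6 sets joined, with log2 fold changes of -0.76 to 0.07 and adjusted p up to 0.552 over its alternatives. SELPLG was at 66.5, 68.6 and 66.5 CPM in CEM and 0.220, 0.185 and 0.0864 CPM in Nalm6 (8.57 ± 0.11). CD44, the hyaluronan receptor, was at 86.8, 108 and 84.0 CPM against 0.837, 0.954 and 0.720 CPM (6.76 ± 0.14). Both were under 1 CPM in Nalm6, SELPLG near the counting limit, and every CEM library lay above every Nalm6 library. STAB1, a scavenger receptor of macrophages and sinusoidal endothelium, was low in both, at 0.477, 0.965 and 0.561 CPM against 0.0881, 0.215 and 0.115 CPM (2.27 ± 0.42). The STAB1 call was lost in the unstranded column, with log2 fold changes of 0.44 to 2.66 and adjusted p up to 0.124 over its alternatives. The sialomucin CD164 did not pass the test (-0.05 ± 0.05).

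Molecules of the immunoglobulin superfamily went both ways. ALCAM, a ligand of CD6, was at 33.5, 32.9 and 32.95 CPM in CEM and at 0 in every Nalm6 and knockout library, at least 1244-fold higher over 3 counts. JAM3, a junctional adhesion molecule, was at 45.7, 44.9 and 47.4 CPM, against 2 counts in Nalm6, both in the untreated library that also held T-lineage counts; the ratio was 2584 (715 to 21340). ICAM3 was at 115, 109.9 and 111 CPM against 6.14, 5.32 and 5.91 CPM (4.23 ± 0.06). All 3 separated the lines without overlap, which for ALCAM and JAM3 was fixed in advance, as they passed the low-count filter through CEM only. ICAM2 was at 69.3, 66.3 and 64.9 CPM against 28.9, 29.6 and 29.96 CPM (1.14 ± 0.05). CD47, the signal that restrains phagocytes, was at 759.8, 722 and 767 CPM against 267, 251 and 245 CPM (1.52 ± 0.05). L1CAM was at 0.455, 0.461 and 0.384 CPM against 1 count in all (ratio 49.3, 8.49 to 1984). Higher levels in Nalm6 were seen for 5 members of this class. CNTN2, a contactin best known from axons, was at 27.7, 28.0 and 29.7 CPM in Nalm6 and held 1 count in untreated CEM, a ratio of 3569 (640 to 141000). CD48, a ligand of CD2 and CD244, was at 5.76, 5.48 and 5.38 CPM in CEM against 33.1, 29.5 and 29.96 CPM (-2.52 ± 0.07). MCAM, the endothelial adhesion molecule CD146, was at 44.1, 42.7 and 43.9 CPM against 206, 212 and 213 CPM (-2.31 ± 0.04). None of these ranges overlapped. ICAM1 was at 5.27, 4.52 and 4.55 CPM against 15.3, 17.0 and 16.4 CPM (-1.79 ± 0.08). CD58, the other ligand of CD2, was at 20.8, 21.4 and 19.7 CPM against 47.1, 49.0 and 44.5 CPM (-1.22 ± 0.06). F11R did not pass the test (0.04 ± 0.06).

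The integrin chains of CEM included several that were near 0 in Nalm6. ITGAL, the alpha chain of the leukocyte integrin that binds ICAM proteins, was at 146, 145 and 145 CPM in CEM and 0.660, 0.523 and 0.403 CPM in Nalm6 (8.02 ± 0.09), and its partner ITGB2 at 259.7, 271 and 263 CPM against 56.8, 60.0 and 64.3 CPM (2.10 ± 0.05). ITGA1, a collagen-binding chain, was at 8.19, 6.998 and 7.98 CPM in CEM and 0 in these Nalm6 libraries, at least 289-fold higher over 3 counts. ITGA2, also collagen-binding, was at 5.68, 5.22 and 5.88 CPM against 0.0660, 0.0923 and 0.173 CPM (5.63 ± 0.22; 2.81 in the unstranded column). Nalm6 thus had ITGB2 counts with few of ITGAL. ITGA4 was at 1148, 1099 and 1123 CPM in CEM against 300.2, 281 and 288 CPM (1.92 ± 0.04). ITGAE, which pairs with ITGB7 and binds E-cadherin, was at 59.7, 56.6 and 59.5 CPM against 19.8, 18.6 and 15.3 CPM (1.67 ± 0.08), and ITGB7 was at 4.83, 4.19 and 5.26 CPM against 1.34, 1.23 and 0.749 CPM (2.03 ± 0.17; 0.99 in the unstranded column). ITGAM, a myeloid chain, was at 0.628, 0.592 and 0.621 CPM against 0.154, 0.123 and 0.0576 CPM (2.34 ± 0.34). For all of these CEM libraries lay above Nalm6 libraries. ITGAV (0.77) and ITGB1 (0.41) were higher in CEM by less, ITGA5 (-0.27) and ITGA6 (-0.53) were lower, and ITGB3 did not pass the test. The ITGA6 call was lost against the first untreated Nalm6 set and against both untreated Nalm6 sets joined, with log2 fold changes of -0.56 to 0.36 and adjusted p up to 0.641 over its alternatives. ITGA9 had 2 counts in CEM and 33 in Nalm6 and was not tested. Against the first untreated Nalm6 set, the difference was -1.32 for MCAM, -0.29 for CXCR4, -0.50 for S1PR4, -0.17 for ITGA5, 3.67 for ITGAM, 8.64 for ITGA2 and 3.29 for ITGB7. In the unstranded column it was 5.67 for CCR9, 4.74 for JAM3 and -6.61 for CNTN2.

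With prednisolone in Nalm6, 13 of 27 members tested rose and 9 fell, where 54.8% (28.7% up and 26.1% down, 8.78% by at least 1 on the log2 scale) of all genes were called; with dexamethasone 14 of 29 rose and 11 fell, where 60.5% (30.2% up and 30.2% down, 11.2% by at least 1 on the log2 scale) were. The median log2 fold change of the members tested was 0.14 under prednisolone (0.03 over all genes) and 0.06 under dexamethasone (0.02 over all genes). All 20 members called under both drugs moved in the same direction, as did 99.1% of all genes called under both, and the comparisons share no library. The drugs were used at different doses and in different sets, so their values stand side by side without a test of the difference.

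**Figure D2:**
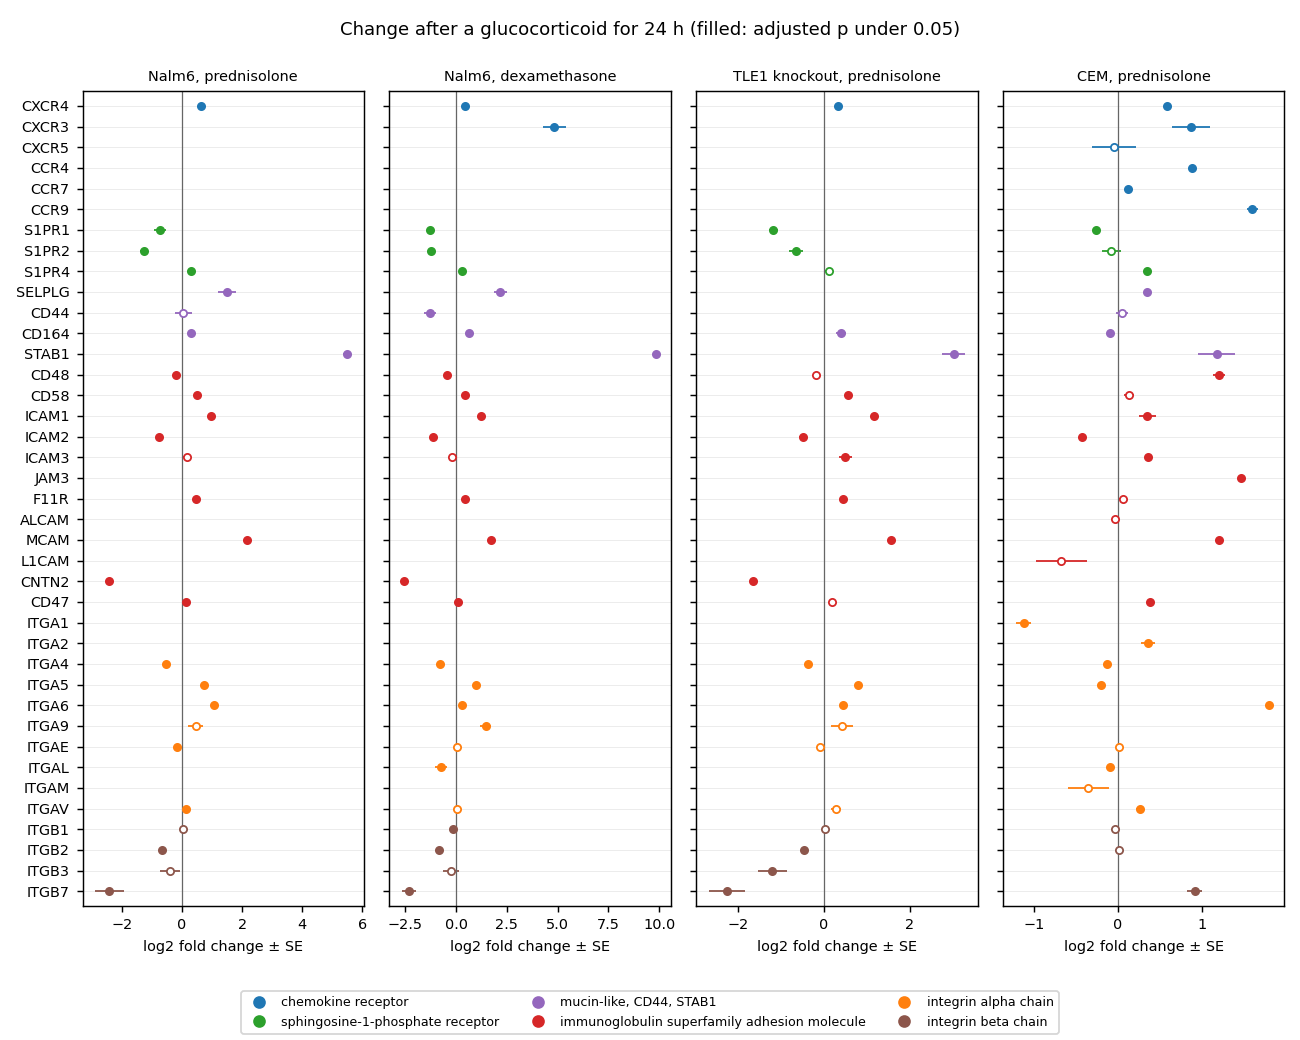
Log2 fold change ± SE of each tested member after 24 h with a glucocorticoid in 4 comparisons (3 treated against 3 untreated libraries each; every panel has its own horizontal scale), coloured by role, with filled points for adjusted p under 0.05. STAB1 and MCAM lie to the right in all panels, and ITGB7 lies to the left in Nalm6 and the knockout and to the right in CEM.

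STAB1 had the largest fold change of the members tested with either drug. It was at 0.258, 0.204 and 0.279 CPM in untreated Nalm6 and 10.9, 11.5 and 12.1 CPM under prednisolone (5.49 ± 0.14, adjusted p = 2.75e-15). Under dexamethasone it was at 128, 125 and 129.9 CPM, against 0.0881, 0.215 and 0.115 CPM in that set's controls (9.83 ± 0.10, adjusted p = 4.18e-17). Every treated library lay far above every untreated one. The dexamethasone controls held 4, 7 and 4 counts, so the SE does not bound that fold. STAB1 entered the dexamethasone test through the treated libraries only, so its direction and lack of overlap there were fixed by the filter. In the unstranded column the log2 fold changes were 3.21 and 7.14. Of 6 stromal and endothelial markers, the summed level was 0.969 to 1.08 CPM in untreated Nalm6 and 11.8 to 16.0 CPM under prednisolone; KDR accounted for most of it, at 12.9 CPM, while COL1A2 and DCN were at 0 in each of these libraries, CDH5 was at 0.361 CPM and VWF at 0.206 CPM. COL1A1, of the same list, was lower under both drugs, at means of 0.697 CPM untreated and 0.334 CPM with prednisolone, and 1.89 CPM untreated and 0.650 CPM with dexamethasone. The genes KDR and STAB1 were both near 0 untreated. Under dexamethasone the sum was 6.35 to 7.08 CPM, against 1.82 to 3.26 CPM untreated. Their part in the STAB1 rise was not tested.

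MCAM rose from 117, 109 and 113 CPM to 486, 515 and 544 CPM under prednisolone (2.16 ± 0.05, adjusted p = 7.00e-16) and from 206, 212 and 213 CPM to 726, 716 and 715 CPM under dexamethasone (1.74 ± 0.04, adjusted p = 3.94e-14). CNTN2 moved the other way. It fell from 41.8, 42.5 and 44.9 CPM to 8.38, 8.58 and 7.52 CPM (-2.44 ± 0.06, adjusted p = 1.05e-15) and from 27.7, 28.0 and 29.7 CPM to 5.07, 4.97 and 5.03 CPM (-2.54 ± 0.06, adjusted p = 3.07e-13). Treated and untreated libraries did not overlap for either gene with either drug. ICAM1 rose by 0.97 ± 0.05 under prednisolone and, from 15.3, 17.0 and 16.4 CPM to 39.5, 39.2 and 36.9 CPM, by 1.21 ± 0.05 under dexamethasone. ICAM2, a constitutive ICAM, fell by 0.76 on the log2 scale with prednisolone and from 28.9, 29.6 and 29.96 CPM to 13.7, 13.4 and 13.7 CPM with dexamethasone (-1.15 ± 0.05). These ICAM genes therefore changed in opposite directions. CD58 (0.50 and 0.43) and F11R (0.47 and 0.44) rose with both drugs. CD48 fell by 0.21 with prednisolone and by 0.46 with dexamethasone on the log2 scale. The CD48 call was lost without replicate 3 of untreated Nalm6 of the first set or replicate 2 of Nalm6 under prednisolone and in the unstranded column, with log2 fold changes of -0.26 to -0.14 and adjusted p up to 0.0675 over its alternatives. CD47 rose by 0.14 and 0.11, calls that were both fragile. The CD47 call was lost without replicates 1, 2 or 3 of Nalm6 under dexamethasone or replicates 2 or 3 of untreated Nalm6 of the dexamethasone set, under DESeq2, in the unstranded column and with all libraries in one fit, with log2 fold changes of 0.08 to 0.14 and adjusted p up to 0.236 over its alternatives. With prednisolone it was lost without a filter and with all libraries in one fit (adjusted p up to 0.0648). ICAM3 did not pass the test with either drug (0.18 ± 0.13 and -0.21 ± 0.09).

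Among receptors for soluble guidance cues, CXCR4 and S1PR4 rose and S1PR1 and S1PR2 fell with both drugs. CXCR4 was at 425, 439.9 and 447 CPM untreated and 670.1, 692 and 729 CPM under prednisolone (0.64 ± 0.04, adjusted p = 7.26e-10), and rose by 0.44 ± 0.04 with dexamethasone. S1PR2, which restrains migration, fell from 3.05, 3.22 and 3.47 CPM to 1.29, 1.29 and 1.48 CPM (-1.27 ± 0.14) and from 4.71, 5.69 and 5.24 CPM to 2.31, 2.36 and 2.21 CPM (-1.21 ± 0.11). S1PR1 fell by 0.73 on the log2 scale with prednisolone and from 4.45, 4.03 and 5.13 CPM to 1.97, 1.62 and 2.23 CPM with dexamethasone (-1.26 ± 0.14). S1PR4 rose by 0.31 and 0.28, and by 0.20 with prednisolone when replicate 3 of that group was left out. Thus the less abundant S1P receptors fell and the most abundant one rose. SELPLG rose from 0.291, 0.143 and 0.174 CPM to 0.611, 0.550 and 0.631 CPM (1.49 ± 0.31) and from 0.220, 0.185 and 0.0864 CPM to 0.833, 0.763 and 0.783 CPM (2.18 ± 0.31), low levels throughout. CXCR3 was counted under dexamethasone, at 0.717, 0.467 and 0.641 CPM, with 77 counts against 2 in the controls, a ratio of 34.4 (95% exact counting interval 9.21 to 289); under prednisolone it was too low to test, at 0, 0.0380 and 0.0341 CPM. CXCR3 entered the dexamethasone test through the treated libraries only, and in the unstranded column its log2 fold change there was 1.53. CD164 rose by 0.29 and 0.64. CD44 fell with dexamethasone from 0.837, 0.954 and 0.720 CPM to 0.393, 0.197 and 0.451 CPM (-1.29 ± 0.29) and did not pass the test with prednisolone (0.05 ± 0.27).

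Of the integrin chains, ITGA6, which forms laminin receptors, rose from 109.7, 101 and 104 CPM to 189.6, 228 and 247 CPM with prednisolone (1.06 ± 0.07, adjusted p = 1.03e-09). With dexamethasone it was at 228, 229.7 and 231 CPM, against 185, 181 and 182 CPM untreated (0.29 ± 0.04), so the treated levels lay close together and the untreated levels apart. ITGA5, the fibronectin-receptor chain, rose by 0.74 and 0.96, while ITGA4 fell by 0.53 and 0.78 on the log2 scale. Among the beta chains, ITGB2 fell by 0.67 and 0.86 on the log2 scale. ITGB7 fell from 0.759, 0.428 and 0.279 CPM to 0.136, 0.0569 and 0.102 CPM (-2.42 ± 0.47) and from 1.34, 1.23 and 0.749 CPM to 0.116, 0.369 and 0.214 CPM (-2.30 ± 0.35). The ITGB7 call was lost in the unstranded column, with log2 fold changes of -2.70 to -0.53 and adjusted p up to 0.0703 over its alternatives. With dexamethasone it was -1.01 in that column. Both chains of the ITGA4 and ITGB7 pair were thus lower, the second at low counts. ITGA9 rose with dexamethasone from 0.286, 0.185 and 0.403 CPM to 0.856, 0.837 and 0.807 CPM (1.46 ± 0.28). ITGAE was lower by 0.18 with prednisolone, ITGB1 by 0.15 and ITGAL by 0.72 with dexamethasone, and ITGAV was higher by 0.14 with prednisolone. The ITGAV call was lost without replicates 2 or 3 of untreated Nalm6 of the first set or replicates 1, 2 or 3 of Nalm6 under prednisolone, with RLE size factors, under DESeq2, without a filter and with all libraries in one fit, with log2 fold changes of 0.11 to 0.17 and adjusted p up to 0.231 over its alternatives. The ITGAL call was lost without replicates 1, 2 or 3 of Nalm6 under dexamethasone or replicates 1 or 2 of untreated Nalm6 of the dexamethasone set, under DESeq2, without a filter and in the unstranded column, with log2 fold changes of -0.89 to -0.40 and adjusted p up to 0.261 over its alternatives. ITGB3 did not pass the test with either drug.

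**Figure D3:**
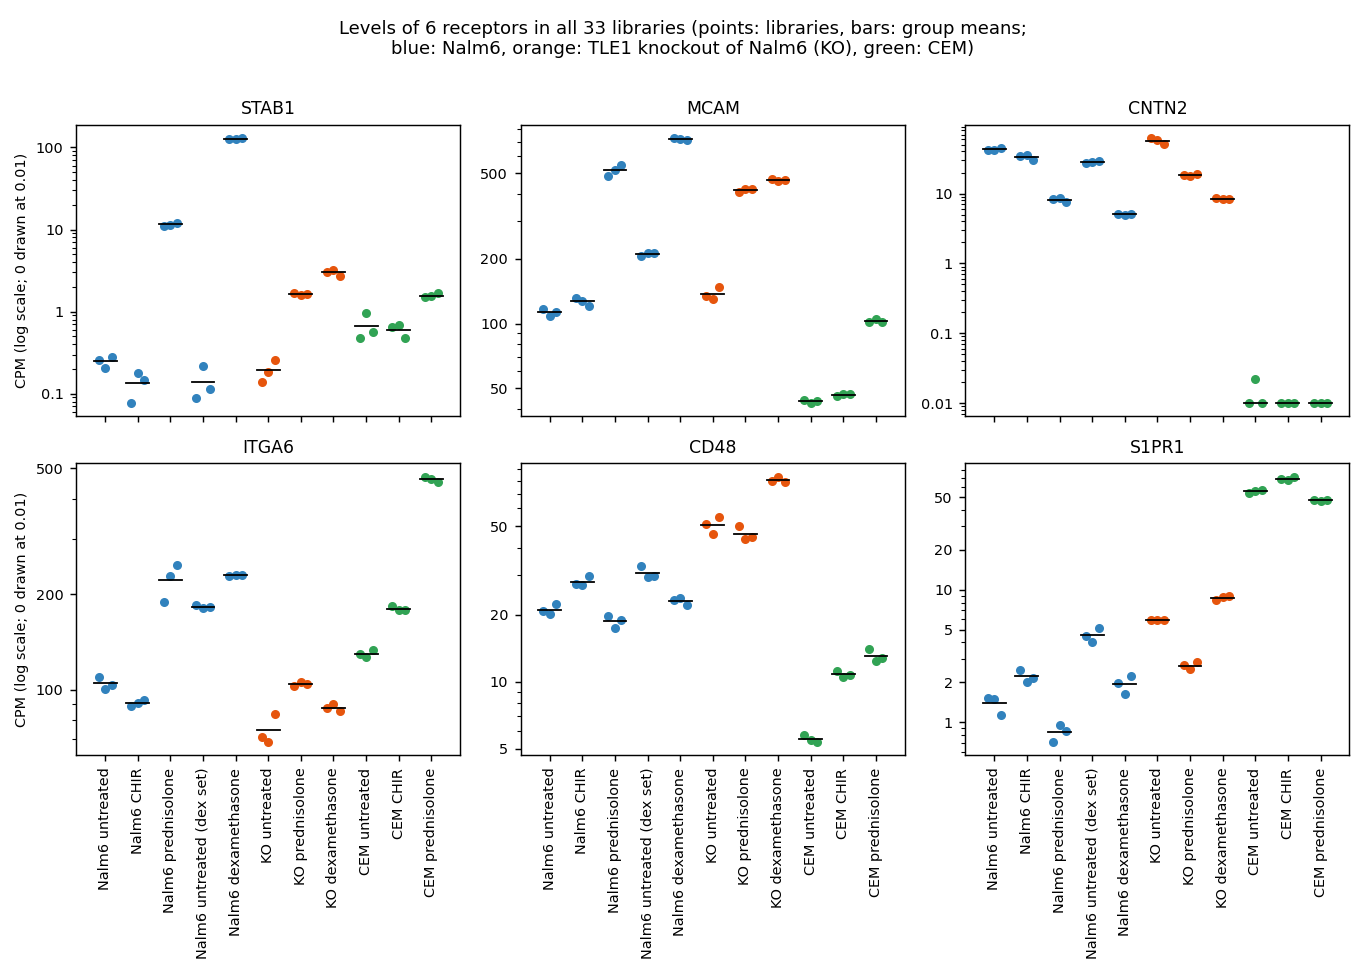
Levels of STAB1, MCAM, CNTN2, ITGA6, CD48 and S1PR1 in each of the 33 libraries, in CPM on log axes that differ between panels, with bars at group means and 0 drawn at 0.01. STAB1 is at most 0.279 CPM in untreated Nalm6 and at least 125 CPM under dexamethasone, and it reaches 3.24 CPM in the knockout and 1.68 CPM in CEM.

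The upstream sequence of 4 members that moved with glucocorticoids is shown, to put letters beside the values. Each is 250 bases before the start of the gene in RefSeq on GRCh38.p14, 5′ to 3′ on the strand of the gene, and the capitals mark a glucocorticoid receptor half-site, AGAACA on either strand. ITGA6 lies at chr2:172427086-172427335 on the plus strand and CD48 at chr1:160711823-160712072 on the minus strand; STAB1 lies at chr3:52495088-52495337 on the plus strand and MCAM at chr11:119317131-119317380 on the minus strand. The count files may use another build, and these coordinates are RefSeq's only.
ITGA6: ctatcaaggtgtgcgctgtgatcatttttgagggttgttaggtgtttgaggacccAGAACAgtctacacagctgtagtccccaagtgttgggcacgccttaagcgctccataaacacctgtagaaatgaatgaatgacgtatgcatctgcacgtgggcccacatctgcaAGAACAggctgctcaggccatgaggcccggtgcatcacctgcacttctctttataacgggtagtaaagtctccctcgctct
CD48: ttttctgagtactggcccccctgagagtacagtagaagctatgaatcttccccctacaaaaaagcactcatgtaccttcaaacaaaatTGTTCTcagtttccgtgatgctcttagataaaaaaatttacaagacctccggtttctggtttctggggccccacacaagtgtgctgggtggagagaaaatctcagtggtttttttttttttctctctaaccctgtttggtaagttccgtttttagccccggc
STAB1: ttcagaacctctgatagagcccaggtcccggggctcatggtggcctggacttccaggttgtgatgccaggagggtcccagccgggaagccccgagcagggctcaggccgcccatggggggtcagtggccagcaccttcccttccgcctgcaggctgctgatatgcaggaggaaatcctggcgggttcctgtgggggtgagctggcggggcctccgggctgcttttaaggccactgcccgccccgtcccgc
MCAM: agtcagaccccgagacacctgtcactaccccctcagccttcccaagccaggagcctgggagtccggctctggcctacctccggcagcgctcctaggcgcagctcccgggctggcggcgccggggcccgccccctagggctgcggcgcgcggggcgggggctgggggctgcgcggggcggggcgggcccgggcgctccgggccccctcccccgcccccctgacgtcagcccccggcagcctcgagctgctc
ITGA6 held 2 half-sites, which begin 195 and 81 bases before the start, and CD48 held 1 on the opposite strand. STAB1 and MCAM, which rose in all 4 glucocorticoid comparisons, held none in this window. Of the members, 32 have an entry, and 3 of them (9.38%, with CXCR5 the third) held a half-site, against 12.4% of 27305 promoters. The full palindrome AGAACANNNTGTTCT was in none of the 32 and in 0.00366% of all, and a TCF/LEF site, CTTTGAT or CTTTGAA on either strand, was in 1 of the 32 (ITGAM, 3.12%) against 6.03% of all. A match is a description of letters and not of binding.

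The knockout differed from Nalm6 before any drug. Untreated, it was higher for 9 and lower for 3 of 27 members tested, where 27.1% (15.3% up and 11.8% down, 4.6% by at least 1 on the log2 scale) of all genes were called. S1PR1 was at 5.87, 5.90 and 5.88 CPM in the knockout and 1.53, 1.51 and 1.13 CPM in the first untreated Nalm6 set (2.10 ± 0.13, adjusted p = 5.00e-06). CD48 was at 51.0, 46.2 and 54.7 CPM against 20.7, 20.2 and 22.3 CPM (1.29 ± 0.07, adjusted p = 3.66e-06). Libraries of the groups did not overlap for these genes, although untreated Nalm6 of the dexamethasone set was itself at 4.45, 4.03 and 5.13 CPM for S1PR1 and 33.1, 29.5 and 29.96 CPM for CD48, between them. ITGB3 was at 0.625, 0.673 and 0.514 CPM against 0.291, 0.347 and 0.279 CPM (1.01 ± 0.24), and ITGAL at 0.382, 0.275 and 0.353 CPM against 0.194, 0.122 and 0.104 CPM (1.24 ± 0.35). ITGAL passed the low-count filter through the knockout only, which fixed its direction. The ITGB3 call was lost without replicates 1 or 3 of untreated Nalm6 of the first set or replicate 2 of the untreated knockout, with log2 fold changes of 0.92 to 1.11 and adjusted p up to 0.0573 over its alternatives. The ITGAL call was lost without replicates 2 or 3 of untreated Nalm6 of the first set or replicates 1 or 3 of the untreated knockout and under DESeq2, with log2 fold changes of 1.06 to 1.57 and adjusted p up to 0.101 over its alternatives. Smaller rises were in ITGB1 (0.69), ITGB2 (0.50), CNTN2 (0.42), S1PR4 (0.31) and MCAM (0.31). Against the untreated dexamethasone set the order differed for some of these genes. MCAM was at 134, 131 and 147 CPM in the knockout and 206, 212 and 213 CPM in that set, which was higher, as it was for ITGAL at 0.660, 0.523 and 0.403 CPM. S1PR4 was at 110.3, 98.6 and 104 CPM in the knockout and 108, 115 and 126 CPM in that set, with overlapping libraries. The knockout was lower for CD58 (-0.46), ITGA6 (-0.46) and ITGA4 (-0.25). Of the beta chains, 3 of 4 were higher. Not called were 15 members, among them CXCR4 (-0.03 ± 0.05) and F11R (-0.14 ± 0.06).

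Prednisolone in the knockout raised 10 and lowered 8 of 25 members tested, where 41.7% (19.8% up and 21.9% down, 6.96% by at least 1 on the log2 scale) of all genes were called. STAB1 rose from 0.139, 0.183 and 0.257 CPM to 1.71, 1.58 and 1.64 CPM (3.02 ± 0.26, adjusted p = 9.49e-06; 0.83 in the unstranded column). The stromal and endothelial sum went from 1.03 to 1.22 CPM untreated to 3.35 to 3.79 CPM, and its part was not tested. MCAM rose from 134, 131 and 147 CPM to 406, 420.2 and 422 CPM (1.56 ± 0.07, adjusted p = 1.01e-07), and ICAM1 from 15.0, 15.6 and 15.4 CPM to 35.8, 34.7 and 36.2 CPM (1.17 ± 0.07). CNTN2 fell from 62.2, 57.9 and 50.4 CPM to 18.6, 18.0 and 19.3 CPM (-1.65 ± 0.08, adjusted p = 1.71e-07). No treated library overlapped an untreated one for these 4. STAB1, with 4, 6 and 8 untreated counts, passed the filter through the treated libraries only, which fixed its direction and lack of overlap. S1PR1 fell from 5.87, 5.90 and 5.88 CPM to 2.68, 2.51 and 2.84 CPM (-1.17 ± 0.12). ITGB7 fell from 0.382, 0.459 and 0.353 CPM to 0.0813, 0.0660 and 0.1004 CPM (-2.26 ± 0.42) and ITGB3 from 0.625, 0.673 and 0.514 CPM to 0.244, 0.165 and 0.402 CPM (-1.20 ± 0.34). The ITGB7 call was lost in the unstranded column, with log2 fold changes of -2.40 to -0.24 and adjusted p up to 0.417 over its alternatives. The ITGB3 call was lost without replicate 2 of the untreated knockout or replicates 1 or 2 of the knockout under prednisolone and under DESeq2, with log2 fold changes of -1.56 to -0.96 and adjusted p up to 0.0667 over its alternatives. Further rises were in ITGA5 (0.79), CD58 (0.56), ICAM3 (0.50), ITGA6 (0.45), F11R (0.45), CD164 (0.40) and CXCR4 (0.33). The ICAM3 call was lost without replicate 2 of the untreated knockout or replicates 1 or 3 of the knockout under prednisolone and in the unstranded column, with log2 fold changes of 0.35 to 0.65 and adjusted p up to 0.151 over its alternatives. The CD164 call was lost without replicates 1 or 3 of the knockout under prednisolone, with log2 fold changes of 0.25 to 0.51 and adjusted p up to 0.0669 over its alternatives. Its lowest value, 0.25, came without replicate 1 of the untreated knockout. S1PR2 (-0.65), ICAM2 (-0.50), ITGB2 (-0.46) and ITGA4 (-0.37) fell. All 16 members called with prednisolone in both Nalm6 and the knockout moved the same way, as did 99.3% of all genes called in both.

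The difference between the prednisolone responses of the knockout and Nalm6 was tested directly, with the first untreated set as the Nalm6 control. It was called for 5 of 27 members, where 3.48% (1.1% up and 2.38% down, 0.696% by at least 1 on the log2 scale) of all genes were called. The response was smaller in the knockout for STAB1 (-2.44 ± 0.38, adjusted p = 0.00124), MCAM (-0.58 ± 0.09, adjusted p = 0.00107) and ITGA6 (-0.59 ± 0.13, adjusted p = 0.0145). The fall of CNTN2 was smaller too (0.81 ± 0.10, adjusted p = 1.62e-04). CXCR4 rose less (-0.29 ± 0.08, adjusted p = 0.0449). The untreated dexamethasone set of Nalm6 was higher than the first set for MCAM (206, 212 and 213 against 117, 109 and 113 CPM). So it was for ITGA6 (185, 181 and 182 against 109.7, 101 and 104 CPM). For CNTN2 it was lower (27.7, 28.0 and 29.7 against 41.8, 42.5 and 44.9 CPM). Against that set the Nalm6 responses of MCAM, ITGA6 and CNTN2 would be smaller, and the differences were not tested with it. The CXCR4 call was lost without replicates 1, 2 or 3 of untreated Nalm6 of the first set or replicates 1 or 2 of the untreated knockout or replicates 2 or 3 of the knockout under prednisolone or replicates 1 or 3 of Nalm6 under prednisolone, without a filter and in the unstranded column, with log2 fold changes of -0.31 to -0.23 and adjusted p up to 0.148 over its alternatives. The other 22 did not pass the test, and their differences ran from -1.05 for CD44 to 0.65 for S1PR2.

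Under dexamethasone the knockout could be compared with Nalm6 by level only, because the labels list no untreated knockout group with the dexamethasone libraries. A difference present before the drug and a difference in response cannot be told apart there. The sample titles do not say whether both groups were prepared together. The knockout was higher for 12 and lower for 10 of 28 members tested, where 56.6% (28.5% up and 28.1% down, 8.13% by at least 1 on the log2 scale) of all genes were called. STAB1 was at 3.04, 3.24 and 2.73 CPM in the knockout and 128, 125 and 129.9 CPM in Nalm6 (-5.40 ± 0.06, adjusted p = 3.88e-24). ITGA6 was at 87.3, 90.1 and 85.4 CPM against 228, 229.7 and 231 CPM (-1.38 ± 0.03, adjusted p = 9.01e-19). CXCR3 held 3 counts in the knockout against 77 in Nalm6, a ratio of 16.6 in favour of Nalm6 (95% exact counting interval 5.47 to 82.3), and all 3 lay in replicate 2. The fitted log2 difference was -3.91, and -1.75 in the unstranded column; without replicate 2 it was -7.48, with no knockout count left, and is no bound. STAB1, ITGA6 and CXCR3 were lower in every knockout library. For CXCR3 this was fixed in advance, as it passed the low-count filter through the Nalm6 libraries only. CD48 was higher, at 79.7, 83.3 and 79.1 CPM against 23.4, 23.8 and 22.0 CPM (1.82 ± 0.04, adjusted p = 4.00e-19), and so was S1PR1, at 8.39, 8.82 and 8.94 CPM against 1.97, 1.62 and 2.23 CPM (2.18 ± 0.11). ITGAL was at 1.15, 1.15 and 0.819 CPM against 0.278, 0.369 and 0.356 CPM (1.63 ± 0.27) and ICAM3 at 11.8, 10.3 and 12.6 CPM against 5.25, 5.14 and 5.06 CPM (1.18 ± 0.09). These 4 did not overlap. SELPLG was at 0.260, 0.277 and 0.615 CPM against 0.833, 0.763 and 0.783 CPM (-0.999 ± 0.31; -1.54 without replicate 3 of the knockout). The SELPLG call was lost without replicates 1 or 2 of the knockout under dexamethasone, with log2 fold changes of -1.54 to -0.77 and adjusted p up to 0.0616 over its alternatives. ICAM2 (0.89), S1PR2 (0.78), CNTN2 (0.77), ITGB1 (0.76), ITGAV (0.66), ITGB2 (0.64), ITGA4 (0.41) and S1PR4 (0.20) were also higher in the knockout. MCAM (-0.62), CD164 (-0.60), CD58 (-0.25), ITGA5 (-0.19), ICAM1 (-0.15) and CXCR4 (-0.11) were lower. The ICAM1 call was lost without replicate 1 of the knockout under dexamethasone and with all libraries in one fit, with log2 fold changes of -0.20 to -0.09 and adjusted p up to 0.132 over its alternatives. The CXCR4 call was lost without replicate 2 of Nalm6 under dexamethasone and with all libraries in one fit, with log2 fold changes of -0.13 to -0.08 and adjusted p up to 0.0864 over its alternatives.

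In CEM, prednisolone raised 18 and lowered 7 of 36 members tested, where 45.1% (22.3% up and 22.8% down, 3.72% by at least 1 on the log2 scale) of all genes were called, and the median was 0.13 over the members tested and 0.02 over all genes. ITGA6 rose from 129.7, 127 and 133 CPM to 471, 463 and 453 CPM (1.80 ± 0.03, adjusted p = 9.53e-18). JAM3 rose from 45.7, 44.9 and 47.4 CPM to 131, 129 and 130.3 CPM (1.47 ± 0.03, adjusted p = 2.57e-16), and CCR9 from 7.61, 6.93 and 7.92 CPM to 24.8, 22.5 and 22.1 CPM (1.60 ± 0.07, adjusted p = 2.85e-12; 0.96 in the unstranded column). Every treated library exceeded every untreated one. MCAM rose from 44.1, 42.7 and 43.9 CPM to 102, 105 and 102 CPM (1.21 ± 0.03) and CD48 from 5.76, 5.48 and 5.38 CPM to 14.0, 12.3 and 12.8 CPM (1.20 ± 0.08). STAB1 rose from 0.477, 0.965 and 0.561 CPM to 1.497, 1.53 and 1.68 CPM (1.18 ± 0.22), a far lower level than in Nalm6. ITGA1 fell from 8.19, 6.998 and 7.98 CPM to 3.78, 3.54 and 3.50 CPM (-1.12 ± 0.09, adjusted p = 2.87e-08), the one fall of at least 1. Its libraries did not overlap either.

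Of 6 chemokine receptors tested in CEM, 5 rose and none fell: CCR9, CCR4 (0.88), CXCR3 (0.88), CXCR4 (0.58) and CCR7 (0.13). The CCR7 call was lost without replicates 1 or 3 of untreated CEM or replicates 1 or 2 of CEM under prednisolone, under DESeq2 and with all libraries in one fit, with log2 fold changes of 0.11 to 0.15 and adjusted p up to 0.293 over its alternatives. Smaller rises were in ITGB7 (0.91), CD47 (0.38), ICAM3 (0.36), ITGA2 (0.36), ICAM1 (0.35), S1PR4 (0.35), SELPLG (0.34) and ITGAV (0.26). Smaller falls were in ICAM2 (-0.43), S1PR1 (-0.26), ITGA5 (-0.20), ITGA4 (-0.12), CD164 (-0.10) and ITGAL (-0.09). The ITGA2 call was lost with all libraries in one fit, with log2 fold changes of 0.31 to 0.39 and adjusted p up to 0.0534 over its alternatives. The CD164 call was lost without replicate 3 of untreated CEM or replicates 2 or 3 of CEM under prednisolone and with all libraries in one fit, with log2 fold changes of -0.12 to -0.08 and adjusted p up to 0.272 over its alternatives. The ITGAL call was lost without replicates 1 or 2 of CEM under prednisolone, in the unstranded column and with all libraries in one fit, with log2 fold changes of -0.11 to -0.08 and adjusted p up to 0.156 over its alternatives. The collagen-receptor chains ITGA1 and ITGA2 thus changed in opposite directions.

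The prednisolone responses of CEM and Nalm6 differed for 18 of 39 members tested (10 higher and 8 lower in CEM), where 26.9% (14.7% up and 12.2% down, 4.84% by at least 1 on the log2 scale) of all genes were called; the dose was 10 µM in CEM and 5 µM in Nalm6. The Nalm6 response was again taken against the first untreated set. Of 16 members called in both lines, 12 moved the same way, against 87.0% of all genes called in both. The 4 that moved apart were CD48, ITGB7, ITGA5 and CD164. CD48 rose in CEM and fell in Nalm6, a difference of 1.42 ± 0.10, adjusted p = 9.88e-11. ITGB7 rose in CEM and fell in Nalm6 (3.35 ± 0.43, adjusted p = 1.66e-06; 1.37 in the unstranded column). ITGA5 fell in CEM and rose in Nalm6 (-0.93 ± 0.05, adjusted p = 1.34e-12), as did CD164 (-0.38 ± 0.06, adjusted p = 6.33e-05). The response was smaller in CEM for STAB1 (-4.30 ± 0.31; -2.38 in the unstranded column), MCAM (-0.94 ± 0.06) and SELPLG (-1.13 ± 0.25). For MCAM the untreated dexamethasone set of Nalm6 was at 206, 212 and 213 CPM, against 117, 109 and 113 CPM in the first set. Against that set the Nalm6 rise of MCAM would be smaller. For CD164 that set (340, 328 and 304 CPM) overlapped Nalm6 under prednisolone (328, 307 and 330 CPM). The differences from CEM were not tested with that set. ITGA6 rose more in CEM (0.75 ± 0.09). Further differences above 0 were called for S1PR2 (1.21), ITGB2 (0.70), S1PR1 (0.48), ITGA4 (0.42), ICAM2 (0.34) and ITGAE (0.21), all of which fell in Nalm6. S1PR1, ITGA4 and ICAM2 also fell in CEM, by less, and the others were not called there. ICAM1 (-0.60), F11R (-0.40) and CD58 (-0.35) had the lower response in CEM and CD47 the higher (0.26). The S1PR1 call was lost without replicates 1 or 2 of untreated Nalm6 of the first set or replicate 1 of Nalm6 under prednisolone, with log2 fold changes of 0.39 to 0.61 and adjusted p up to 0.108 over its alternatives. The ITGAE call was lost without replicate 2 of Nalm6 under prednisolone and with all libraries in one fit, with log2 fold changes of 0.16 to 0.31 and adjusted p up to 0.119 over its alternatives. CXCR4 did not differ in its response past the threshold (-0.05 ± 0.06).

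CHIR moved fewer genes. In Nalm6 it raised 5 and lowered 3 of 27 members tested, where 7.88% (3.16% up and 4.72% down, 0.315% by at least 1 on the log2 scale) of all genes were called. Leaving out replicate 1, 2 or 3 of the untreated group gave 5, 5 and 3 members; it was 5 without replicate 1 under CHIR, 7 without replicate 2 and 12 without replicate 3 under CHIR. Replicate 3 stood apart from the others of its group, with a chi-square per degree of freedom of 42.06 and 43.74 against replicates 1 and 2, which gave 5.77 between them. ITGB3, the beta chain of the vitronectin receptor, was at 0.614, 0.652 and 0.612 CPM under CHIR and 0.291, 0.347 and 0.279 CPM untreated (1.04 ± 0.22), with no overlap. S1PR1 (0.67 ± 0.15), CD48 (0.42 ± 0.06, adjusted p = 0.00249), ITGA4 (0.31 ± 0.04, adjusted p = 0.00223) and CD58 (0.15 ± 0.04) rose. CNTN2 (-0.36 ± 0.06), CXCR4 (-0.30 ± 0.04, adjusted p = 0.00296) and ITGA6 (-0.21 ± 0.04) fell. CD48, ITGA4 and CXCR4 kept their calls under every alternative run. The ITGB3 call was lost without replicates 1, 2 or 3 of untreated Nalm6 of the first set and in the unstranded column, with log2 fold changes of 0.71 to 1.13 and adjusted p up to 0.0978 over its alternatives. The S1PR1 call was lost without replicates 2 or 3 of untreated Nalm6 of the first set or replicate 1 of Nalm6 under CHIR, with log2 fold changes of 0.54 to 0.76 and adjusted p up to 0.107 over its alternatives. The CD58 call was lost without replicates 1, 2 or 3 of untreated Nalm6 of the first set or replicates 1 or 2 of Nalm6 under CHIR, without a filter and with all libraries in one fit, with log2 fold changes of 0.15 to 0.17 and adjusted p up to 0.193 over its alternatives. The CNTN2 call was lost without replicate 3 of untreated Nalm6 of the first set, with log2 fold changes of -0.41 to -0.29 and adjusted p up to 0.0544 over its alternatives. The ITGA6 call was lost without replicates 1 or 3 of untreated Nalm6 of the first set or replicate 1 of Nalm6 under CHIR, with log2 fold changes of -0.24 to -0.17 and adjusted p up to 0.0959 over its alternatives. Of 7 members called with CHIR and with dexamethasone, which share no control, CD48, CXCR4, ITGA4, ITGA6 and S1PR1 moved in opposite directions and CD58 and CNTN2 in the same; among all genes called with both, 24.7% had the same sign.

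In CEM, CHIR raised 6 and lowered 12 of 36 members tested, where 10.8% (5.41% up and 5.43% down, 0.39% by at least 1 on the log2 scale) of all genes were called. CCR9 fell from 7.61, 6.93 and 7.92 CPM to 2.83, 3.48 and 3.42 CPM (-1.19 ± 0.10, adjusted p = 2.88e-05; -0.73 in the unstranded column). CXCR3 rose from 0.607, 0.746 and 0.384 CPM to 1.27, 1.22 and 1.47 CPM (1.16 ± 0.22, adjusted p = 0.00544). Their treated and untreated libraries did not overlap. CD48 rose by 0.98 ± 0.07, ITGA6 by 0.49 ± 0.04, S1PR1 by 0.33 ± 0.04, ITGA2 by 0.31 and ALCAM by 0.27. Falls were seen in ITGA1 (-0.46), ITGAE (-0.40), CCR4 (-0.35), CD58 (-0.30), ITGA5 (-0.28), CD47 (-0.26), CCR7 (-0.25), SELPLG (-0.23), S1PR4 (-0.22), CD164 (-0.17) and ICAM2 (-0.17). The ITGA2 call was lost without replicates 1, 2 or 3 of untreated CEM or replicates 1 or 2 of CEM under CHIR, under DESeq2, in the unstranded column and with all libraries in one fit, with log2 fold changes of 0.25 to 0.35 and adjusted p up to 0.192 over its alternatives. The S1PR4 call was lost without replicates 2 or 3 of untreated CEM or replicate 2 of CEM under CHIR and with all libraries in one fit, with log2 fold changes of -0.27 to -0.18 and adjusted p up to 0.109 over its alternatives. The CD164 call was lost without replicate 3 of untreated CEM or replicate 2 of CEM under CHIR and with all libraries in one fit, with log2 fold changes of -0.18 to -0.14 and adjusted p up to 0.246 over its alternatives. The ICAM2 call was lost without replicates 1 or 2 of untreated CEM or replicates 1 or 2 of CEM under CHIR and in the unstranded column, with log2 fold changes of -0.19 to -0.14 and adjusted p up to 0.0961 over its alternatives. Of the 3 beta chains tested none passed the test.

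**Figure D4:**
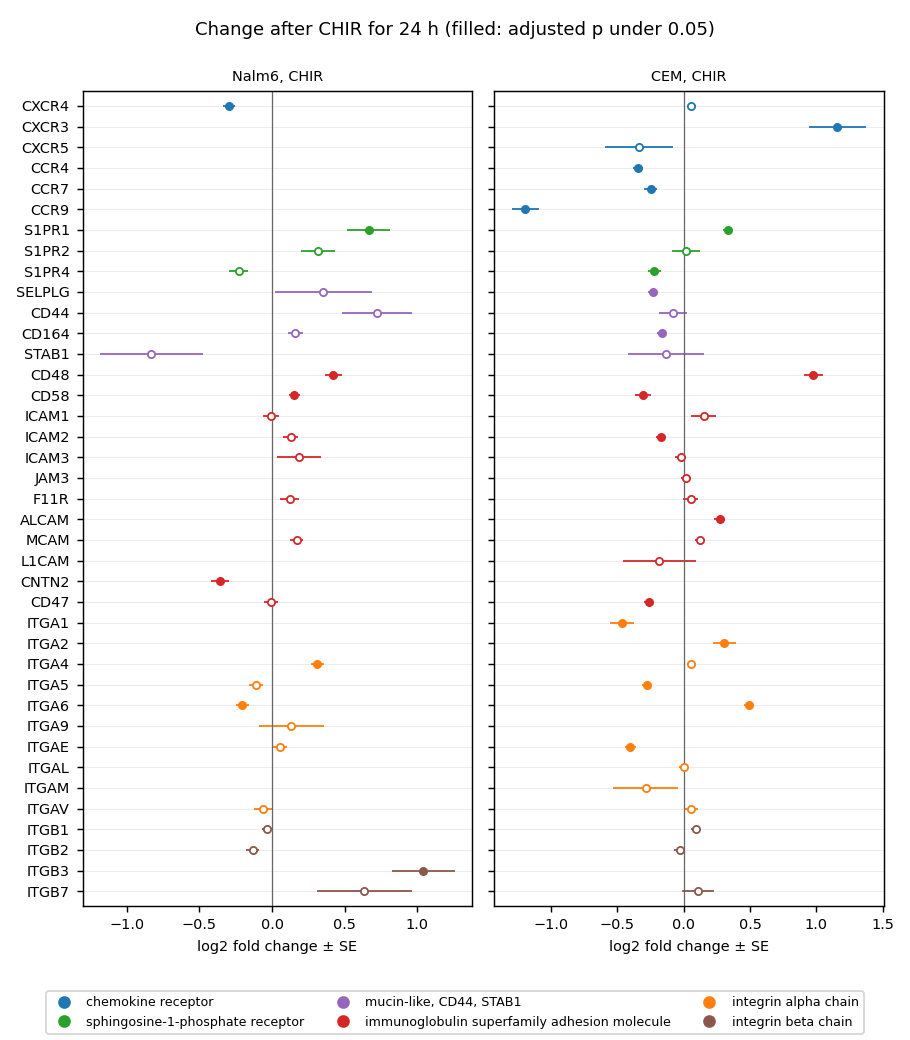
Log2 fold change ± SE of each tested member after 24 h with CHIR (0.5 µM in Nalm6, 2 µM in CEM; 3 treated against 3 untreated libraries each), coloured by role, with filled points for adjusted p under 0.05. CD48 lies to the right in both lines, and ITGA6 and CD58 lie on opposite sides.

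The CHIR responses of the lines, at different doses, differed for 8 of 39 members tested, where 1.17% (0.63% up and 0.545% down, 0.19% by at least 1 on the log2 scale) of all genes were called. ITGA6 rose in CEM and fell in Nalm6 (0.70 ± 0.06, adjusted p = 6.91e-06), and CD58 did the reverse (-0.45 ± 0.07, adjusted p = 0.00213). CXCR4 fell in Nalm6 and was not called in CEM (0.36 ± 0.05). The rise of CD48 was larger in CEM (0.56 ± 0.09). The remaining differences were ITGAE (-0.45), CD164 (-0.32), ICAM2 (-0.30) and ITGA4 (-0.25). The ICAM2 call was lost without replicates 1, 2 or 3 of untreated Nalm6 of the first set or replicates 1, 2 or 3 of untreated CEM or replicates 1 or 2 of CEM under CHIR and in the unstranded column, with log2 fold changes of -0.34 to -0.26 and adjusted p up to 0.114 over its alternatives. The ITGA4 call was lost without replicates 2 or 3 of untreated Nalm6 of the first set or replicates 1 or 3 of untreated CEM or replicates 1 or 2 of CEM under CHIR and in the unstranded column, with log2 fold changes of -0.28 to -0.23 and adjusted p up to 0.0896 over its alternatives. The CD164 call was lost without replicates 2 or 3 of untreated Nalm6 of the first set or replicate 3 of untreated CEM or replicate 2 of CEM under CHIR and with all libraries in one fit, with log2 fold changes of -0.38 to -0.28 and adjusted p up to 0.203 over its alternatives.

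Genes that work with these receptors were taken from 6 companion lists. Of 29 tested genes of chemokine and S1P receptor signalling in Nalm6, 10 rose and 13 fell under prednisolone, and 14 rose and 10 fell under dexamethasone, where 54.8% and 60.5% of all genes were called. KLF2, a transcription factor known to promote S1PR1 expression, rose by 5.13 ± 0.13 with prednisolone, 4.25 ± 0.12 with dexamethasone, 5.01 ± 0.28 in the knockout and 1.58 ± 0.12 in CEM. CD69, a surface protein known to bind and internalise S1PR1, rose by 3.89 ± 0.06, 3.67 ± 0.06, 2.70 ± 0.11 and 1.91 ± 0.04, and its response was smaller in the knockout than in Nalm6 (-1.16 ± 0.12, adjusted p = 4.00e-05). S1PR1 itself fell in those 4 comparisons.

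Of the integrin activation and adhesion complex list, 8 of 21 tested rose and 8 fell under prednisolone in Nalm6, 8 rose and 9 fell under dexamethasone, 3 rose and 8 fell in the knockout, and 15 of 22 rose and 3 fell in CEM. The shares of all genes called in these 4 comparisons were 54.8%, 60.5%, 41.7% and 45.1%. PARVG, a parvin of haematopoietic cells, rose by 1.36, 1.79 and 0.93 in Nalm6 with prednisolone, with dexamethasone and in the knockout. FERMT2, a kindlin that activates integrins, rose by 1.30, 1.07 and 0.78 in the same order, and APBB1IP, the adaptor RIAM, was lower at -0.92, -1.19 and -0.99. CYTIP, an adaptor that binds cytohesin, rose in CEM (2.75 ± 0.17), and was also higher in the untreated knockout (3.06 ± 0.14) and under CHIR in Nalm6 (1.05 ± 0.16) and CEM (0.83 ± 0.21). Under CHIR 1 of 21 rose and 2 fell in Nalm6, and 2 of 22 rose and 1 fell in CEM, where 7.88% and 10.8% of all genes were called.

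In the list of selectin ligand glycosylation and sulphation, 5 of 11 rose and 4 fell with either glucocorticoid in Nalm6, and 2 rose and 4 fell in CEM. For this list and those that follow, the share of all genes called was 54.8% with prednisolone and 60.5% with dexamethasone in Nalm6, and 45.1% in CEM. TPST2, which sulphates tyrosines of SELPLG and of chemokine receptors, rose by 0.87 and 1.11 in Nalm6 and 0.72 in the knockout. ST3GAL6, a sialyltransferase, rose by 0.67 and 1.20 in Nalm6 and 1.79 in CEM. Of other homing and adhesion receptors, 7 of 18 rose and 5 fell with prednisolone and 6 of 16 rose and 4 fell with dexamethasone in Nalm6, and 6 of 22 rose and 5 fell in CEM. CCR1 (1.74 and 1.69) rose in Nalm6, and CCR2 rose in CEM (3.55) while CCR8 fell (-1.51). Among ligands, 2 of 7 rose and 2 fell with prednisolone, and 3 of 7 rose and 2 fell with dexamethasone. CD244, the partner of CD48, was listed at 0 in untreated Nalm6 and at a mean of 3.59 CPM under prednisolone, and SPP1, osteopontin, fell by 1.48 and 2.51 on the log2 scale. Of 8 tested genes of S1P synthesis, export and degradation in Nalm6, none rose and 3 fell with prednisolone, and 1 rose and 2 fell with dexamethasone.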

How the data were processed

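RNA was sequenced from 33 libraries in 11 groups of 3. The authors' deposited files hold whole-number counts per gene in 3 strand columns, in the layout that STAR writes; the submitters' processing notes name hg19, Bowtie2 and DESeq2 without a role. The stranded column was used, which held 12.3 to 15.3 times the counts of its opposite. Rows for reads that were unmapped (2.84 to 11.2%), multimapped, in no feature (18.4 to 32.7%) or ambiguous were left out. CPM scales counts to a gene total of 1000000; levels per kilobase use exon lengths of the supplied annotation. Each comparison was fitted over all genes with edgeR 4.0.16 (R 4.3.3) after TMM scaling and its filter on low counts, with quasi-likelihood tests, Benjamini-Hochberg adjusted p and a threshold of 0.05; SE is the log2 fold change over the root of F. Where 1 group is near 0 this SE does not bound the fold. A member near 0 in 1 group can pass the filter through the other group only, which fixes its direction. The edgeR fit was tried on data simulated from CHIR and untreated Nalm6 only, with changes planted in genes with higher counts. Other comparisons, differences of responses and DESeq2 were not tried in this way. Members with a called change of at least 1 are given in each library of that comparison. Alternatives were RLE factors, DESeq2 1.42.0, other filters, the unstranded column, other sample sets, a replicate block and leaving out each library. The members and lists were chosen with earlier results of these data known. Replicates differed by more than sampling noise (chi-square per degree of freedom 1.85 to 43.7), so none were merged. Same-numbered libraries deviated with correlations of -0.143 to 0.118, so the numbers were not taken as pairs.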

Additional observations from a re-analysis of the deposited data

Results flagged for a closer look

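A test of the difference between 2 responses singled out the following values (edgeR, adjusted p under 0.05; 3 libraries in each of 4 groups). In each test the Nalm6 control was the first untreated set, and the dexamethasone set was not tried in its place. Between the knockout and Nalm6, the log2 prednisolone response differed for STAB1 (-2.44), ITGA6 (-0.59), MCAM (-0.58), CXCR4 (-0.29) and CNTN2 (0.81).

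Between CEM and Nalm6, the prednisolone response was lower in CEM for STAB1 (-4.30), SELPLG (-1.13), MCAM (-0.94), ITGA5 (-0.93), ICAM1 (-0.60), F11R (-0.40), CD164 (-0.38) and CD58 (-0.35). It was higher in CEM for ITGB7 (3.35), CD48 (1.42), S1PR2 (1.21), ITGA6 (0.75), ITGB2 (0.70), S1PR1 (0.48), ITGA4 (0.42), ICAM2 (0.34), CD47 (0.26) and ITGAE (0.21).

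The CHIR response differed between CEM and Nalm6 for ITGA6 (0.70), CD48 (0.56), CXCR4 (0.36), ITGA4 (-0.25), ICAM2 (-0.30), CD164 (-0.32), CD58 (-0.45) and ITGAE (-0.45). Doses differed between the lines in both comparisons.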

How the results depend on the processing

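Of 234 calls of a member in a comparison, 194 held under every alternative run and 40 were lost in at least 1, 31 of them when a library was left out. Signs changed for ITGA6 (0.36) and S1PR2 (0.07) in CEM against Nalm6 when the first untreated Nalm6 set was used; that alternative exchanges the untreated group. With all libraries in one fit, 8 members differed in prednisolone response between knockout and Nalm6 in place of 5; the cause was not tested. With at least 10 counts in every library, 21 members differed between CEM and Nalm6, as fewer could be tested. Leaving out 1 library gave 3 to 12 members for CHIR in Nalm6 and 5 to 9 for the difference in CHIR response.

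With a replicate block, the called members numbered 7 for CHIR in Nalm6, 22 for prednisolone and 24 for dexamethasone in Nalm6, 13 for the untreated knockout, 18 for prednisolone in the knockout, 4 for its difference from Nalm6, 22 for the knockout under dexamethasone, 17 for CHIR and 26 for prednisolone in CEM, 35 for CEM against Nalm6, 18 and 6 for the differences in prednisolone and CHIR response, and 19 between the untreated Nalm6 sets. The block ended the calls of CD58 and ITGA6 (CHIR in Nalm6), ITGAL (dexamethasone), CXCR4 (knockout difference), ITGA2 (CHIR in CEM), and ITGA4 and ICAM2 (CHIR response difference). Each library correlated best with its own number in 3 of 3 pairs for prednisolone in Nalm6 and between the untreated Nalm6 sets, a hint from the data and not from the design. Low counts limit CXCR3, ITGB3, ITGB7, ITGA9 and SELPLG in Nalm6.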
